A study of Mus musculus with 2 samples.

Results

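Interferon-stimulated genes were followed in 9 members, Isg15, Ifit1, Ifit2, Ifit3, Rsad2, Irf7, Oasl2, Bst2 and Ifi27l2a, of 28692 genes measured in single cells from mouse gonadal white adipose tissue (gWAT). The members are classical interferon targets, taken as a list of names with earlier results of these data known. The study deleted Pgam1, which encodes the glycolytic enzyme phosphoglycerate mutase 1, in adipocytes, and the cells measured were the stromal vascular fraction (SVF), the non-adipocyte cells that collagenase frees from the fat pad. There was 1 droplet library (10x Genomics) of a control labelled littermate wildtype and 1 of a Pgam1 knockout (Adipo-Pgam1 KO), both from male C57BL/6 mice 13 weeks old, and how many animals went into each was not stated. In the knockout, a floxed Pgam1 allele is cut by Cre under the adipocyte promoter Adipoq, which is not known to act in most SVF cells. Littermate controls are described in the study's methods as carrying both floxed alleles without Cre. With 1 library of each genotype there was no replicate, no test of genotype was possible, and every interval below covers counting error only.

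Interferons are secreted proteins that cells release on sensing viral or misplaced nucleic acid. Type I interferons act through the receptor pair Ifnar1 and Ifnar2 and the kinases Jak1 and Tyk2, which activate a transcription factor complex that binds the interferon-stimulated response element in promoters. Interferon-gamma, made by lymphocytes, acts through another receptor, and induces a partly shared set of genes. Resting cells of many tissues, fat included, keep a low level of these transcripts.

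The members lie on 6 chromosomes of the mouse genome (GRCm38, GENCODE vM21 gene models). Ifit2 (chr19:34550694-34576419), Ifit3 (chr19:34583531-34588731) and Ifit1 (chr19:34640871-34650009) lie near each other on the plus strand of chromosome 19 and encode tetratricopeptide proteins that bind foreign RNA. Rsad2 (chr12:26442746-26456452, minus strand) encodes viperin, a radical SAM enzyme that makes a chain-terminating nucleotide, and Ifi27l2a (chr12:103442167-103443680, minus strand) encodes a small hydrophobic protein. Isg15 (chr4:156199424-156200818, minus strand) encodes a ubiquitin-like modifier, and Irf7 (chr7:141262706-141266481, minus strand) the transcription factor that amplifies type I interferon production. Oasl2 (chr5:114896936-114912234, plus strand) belongs to the oligoadenylate synthetase family, and Bst2 (chr8:71534255-71537456, minus strand) encodes tetherin, which holds budding virions at the cell surface.

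The promoter sequences are shown because they carry the element that makes these genes a group. In RefSeq promoter windows of GRCm38.p6 (250 bases before to 50 bases after the start), 8 of the 9 members had an entry and Ifi27l2a had none. The core of the response element, searched as GAAA, any 2 bases and GAAA again (TTTC, any 2 bases and TTTC on the other strand), was present in 5 of the 8, against 3.44% of the 32851 windows in the table. The stretches run 5′ to 3′ on the strand of the gene, and capitals mark the fixed letters of each match, with overlapping matches merged. They cover chr4:156200850-156200921 (minus strand), chr19:34640760-34640838 and chr19:34583348-34583441 (both plus strand), chr12:26456538-26456597 and chr8:71537562-71537627 (both minus strand).

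Isg15: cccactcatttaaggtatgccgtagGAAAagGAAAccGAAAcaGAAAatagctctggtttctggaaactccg
Ifit1: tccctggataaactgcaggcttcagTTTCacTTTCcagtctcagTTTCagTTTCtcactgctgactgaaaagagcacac
Ifit3: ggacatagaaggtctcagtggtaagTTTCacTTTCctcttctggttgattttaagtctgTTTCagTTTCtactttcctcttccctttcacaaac
Rsad2: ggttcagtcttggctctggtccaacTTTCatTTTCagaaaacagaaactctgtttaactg
Bst2: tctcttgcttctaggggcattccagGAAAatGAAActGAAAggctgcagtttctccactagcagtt

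Isg15 held 3 overlapping matches in a row, starting 78 bases upstream of the start, and Bst2 held 2 overlapping matches starting 130 bases upstream. Ifit1 and Ifit3 each held 2 separate matches on the opposite strand, the first starting 104 and 156 bases upstream, and Rsad2 held 1, 120 bases upstream. The windows of Ifit2 (2 entries), Irf7 and Oasl2 held no match of these letters, which says nothing of other forms of the element. Among the other lists described below, 16 of the 31 other interferon-stimulated genes with a window and 9 of the 16 interferon-gamma-linked genes with a window held a match, whereas 0 of 8 genes of the dissociation response did.

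The libraries differed in size. The control library held 8522 barcodes with 42859406 unique molecular identifiers (UMIs, 1 per captured RNA molecule) and the KO library 2730 barcodes with 13821581. Barcodes under 500 detected genes or over 10% mitochondrial UMIs were set aside, which left 3881 and 958. After called doublets (barcodes likely to hold more than 1 cell) were removed, 3616 control and 937 KO cells remained, with a median of 6888.5 and 7481 UMIs. Levels are UMIs summed over the cells of a class and divided by all UMIs of those cells, in CPM (UMIs of a gene in every 1000000 UMIs), with an exact Poisson 95% interval. Both libraries held 9 barcode sequences in common, 0 of them among the kept cells. Pgam1 was at 110 CPM in control and 117 CPM in KO cells, and its log2 ratio (KO over control) in the 7 classes compared ran from -1.39 in T cells to 0.50 in macrophages. In fibroblasts it was at 109 and 105 CPM (-0.05, -0.23 to 0.14), with 109 and 116 CPM in the cluster led by Fam150b and Bmper and 108 and 83.0 CPM (-0.38, -0.75 to -0.03) in the one led by Islr2 and Pi16. Adipoq had 23 and 8 UMIs in all, 3 and 2 of them in fibroblasts, and the study's own preadipocyte cluster was not rebuilt here, so these values do not settle whether the labels hold.

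Clustering gave 23 clusters, of which 14 were assigned to 10 cell classes by 4 to 9 detected markers each and 9 were left unnamed. The class names mean likeness to those markers (fibroblast-like, endothelial-like and so on) and are written without the suffix. Unnamed clusters are called by their leading genes. Genotypes were compared in the 7 named classes with at least 30 cells in each library, and mesothelial cells (105 control and 20 KO), pericytes and smooth muscle cells (217 and 21) and lymphatic endothelial cells (56 and 12) are given by their levels.

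Summed over the 7 members that interferon induces from a low level (all but Bst2 and Ifi27l2a), transcripts in the control gWAT were, among the named classes, most abundant in endothelial and mesothelial cells and least abundant in B cells. The sum stood at 505 CPM (457 to 557) in 153 endothelial cells and at 367 CPM (336 to 400) in 105 mesothelial cells. Pericytes and smooth muscle cells were at 147 CPM, dendritic cells at 113 CPM, fibroblasts at 101 CPM, macrophages at 79.9 CPM, T cells at 77.9 CPM, NK cells at 72.5 CPM and lymphatic endothelial cells at 66.3 CPM. B cells had 32.8 CPM (20.3 to 50.1). The intervals of endothelial and mesothelial cells did not overlap with each other or with any other named class, whereas macrophages, T cells, NK cells and lymphatic endothelial cells overlapped. These intervals cover counting error only, and 11 of the 153 endothelial cells held 60.4% of the induced UMIs of that class. Without the 10 richest cells of each class, mesothelial cells were first, at 277 CPM against 220 CPM in endothelial cells. One unnamed cluster, led by Cd300e, Trem3 and Treml4, had 331 CPM (292 to 375) in 120 control cells, and those led by Il23r and Cd163l1 and by Hmmr and Kif18b were below B cells, at 24.6 and 20.8 CPM. The order held for this sum only. With Bst2 and Ifi27l2a added, NK cells were the lowest named class, at 120 CPM against 265 CPM in B cells, and a list of 39 other interferon-stimulated genes was at 3669 CPM in B cells, 3479 CPM in mesothelial cells and 5896 CPM in endothelial cells.

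Among the 10 named classes, 7 of the 9 members were highest in endothelial cells, and Oasl2 and Ifi27l2a in mesothelial cells, as seen in the plot of the 9 genes over 10 classes. Isg15 led in endothelial cells at 147 CPM (122 to 176), ahead of mesothelial cells at 58.4 CPM and pericytes and smooth muscle cells at 55.0 CPM, and 43 of the 86 UMIs of the last class lay in 1 cell. Rsad2 led in endothelial cells too, at 100.5 CPM (79.7 to 125), with the next named class, macrophages, at 26.6 CPM, but an unnamed cluster led by hemoglobin genes had more, at 229 CPM. Oasl2 was highest in mesothelial cells at 175 CPM (153 to 198), where 71 of 105 cells held at least 1 UMI, against 71.6 CPM in endothelial cells and 1.96 CPM (2 UMIs) in NK cells.

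Ifit2 was spread most evenly of the Ifit genes. It was at 42.7 CPM in endothelial cells, 33.4 CPM in fibroblasts, 30.1 CPM in T cells and 29.2 CPM in mesothelial cells, with overlapping intervals, and at 2.39 CPM in macrophages. Ifit1 was at 61.6 CPM in endothelial cells and 36.3 CPM in mesothelial cells but at 9.62 CPM in fibroblasts. Ifit3 had 47.7 CPM in endothelial cells and no UMI in 236 NK or 133 B cells of the control library, which allows up to 3 UMIs, or a share of up to 1.27% and 2.26% of the cells with a UMI. Irf7 was higher in the unnamed Cd300e and Trem3 cluster, at 99.0 CPM (77.8 to 124), than in endothelial cells, at 33.9 CPM, or NK cells, at 33.3 CPM.

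Bst2 and Ifi27l2a, which many cells express at rest, differed in where they were high. Bst2 was highest in endothelial cells, at 477 CPM (431 to 528), and in lymphatic endothelial cells, at 208 CPM. Ifi27l2a was low in those same cells, at 32.7 CPM and 46.1 CPM, and high in the Cd300e and Trem3 cluster (819 CPM), mesothelial cells (418 CPM), macrophages (402 CPM), T cells (275 CPM) and fibroblasts (194 CPM). Droplet libraries carry free RNA, and a background for Ifi27l2a is given by the control NK cells, where 7 of 236 cells held 18 UMIs in all, and by an unnamed cluster led by Il23r and Cd163l1, where 0 of 53 did. Genes outside the lists whose level followed the 7 induced members most closely over the 10 control classes were Fdft1 (Pearson r = 0.92), Tssc4, Lama5, Smad6 and Sh3bp4 (r = 0.87), all highest in endothelial cells. These 10 points share 1 library.

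**Figure D1:**
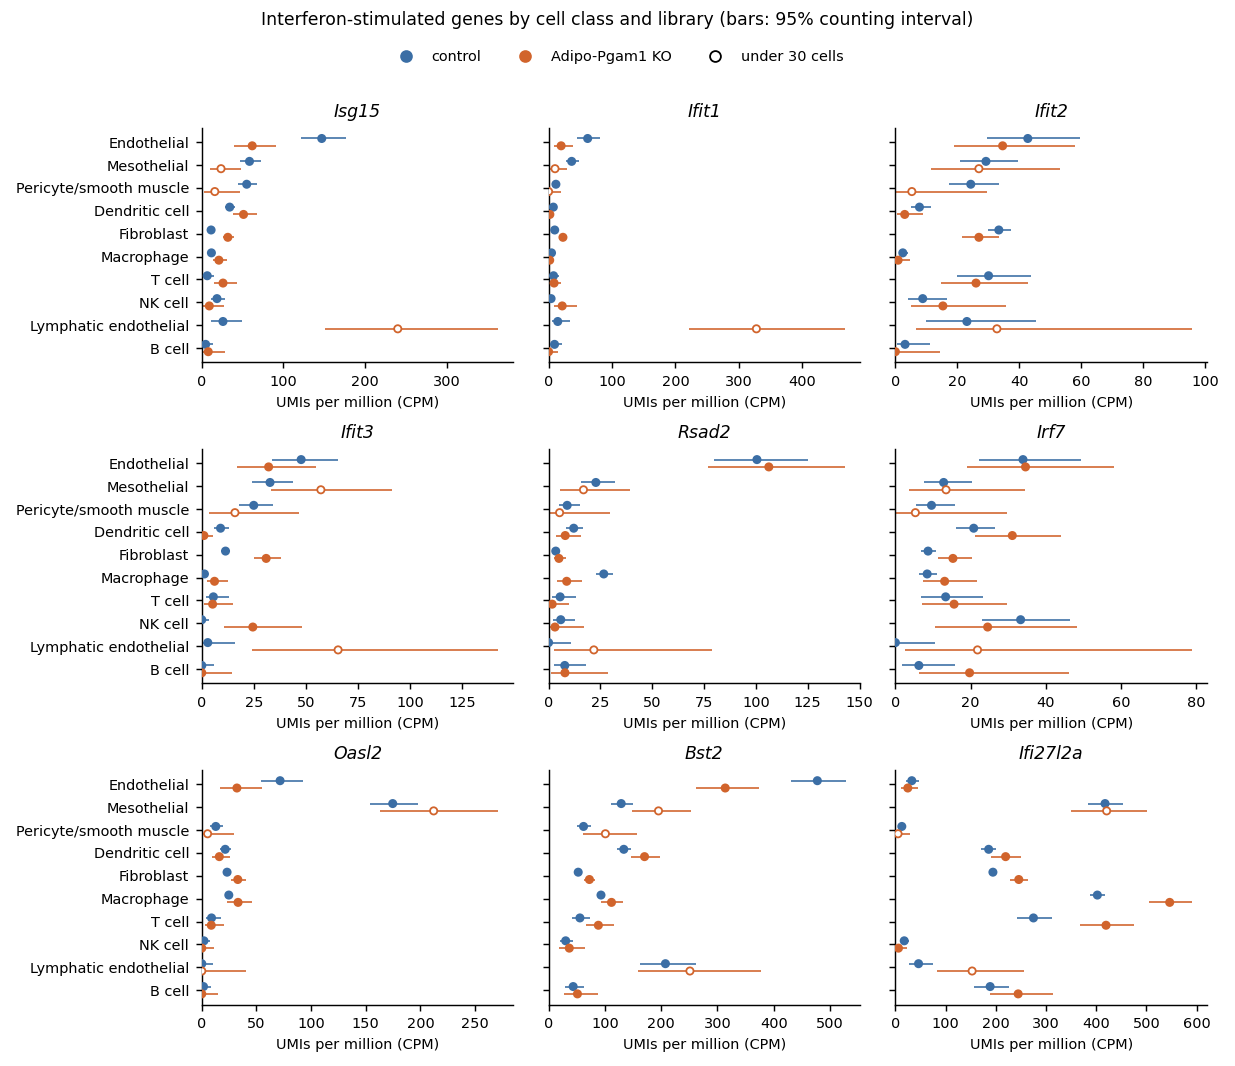
Level of each member (horizontal axis, CPM) in the 10 named cell classes (vertical axis) in the control (blue) and the Adipo-Pgam1 KO (orange) library, with exact Poisson 95% intervals for counting error. Open points are classes with fewer than 30 cells. Control endothelial cells lead for Isg15 (147 CPM), Rsad2 (100.5 CPM) and Bst2 (477 CPM), mesothelial cells for Oasl2 (175 CPM), and Ifi27l2a is near the axis in endothelial cells (32.7 CPM).

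A few cells held most of the UMIs of several members. Of the control UMIs, the 1% of kept cells with the most of a gene (36 cells) held 65.9% for Rsad2, 60.2% for Ifit1, 50.8% for Ifit3 and 47.4% for Isg15, falling to 30.1% for Oasl2, 21.1% for Ifit2, 19.7% for Bst2 and 16.9% for Ifi27l2a. In the KO library, 9 cells held 68.8% of Ifit1, 58.4% of Ifit3 and 51.0% of Rsad2 UMIs. Genes with a like UMI total were less concentrated, with a median share of 23.1% for the 1146 genes near Ifit1 in the control library. For Ifit2, 79.3% of the 1564 genes near it had a smaller share, and for Rsad2 98.7% of 1553 did.

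**Figure D2:**
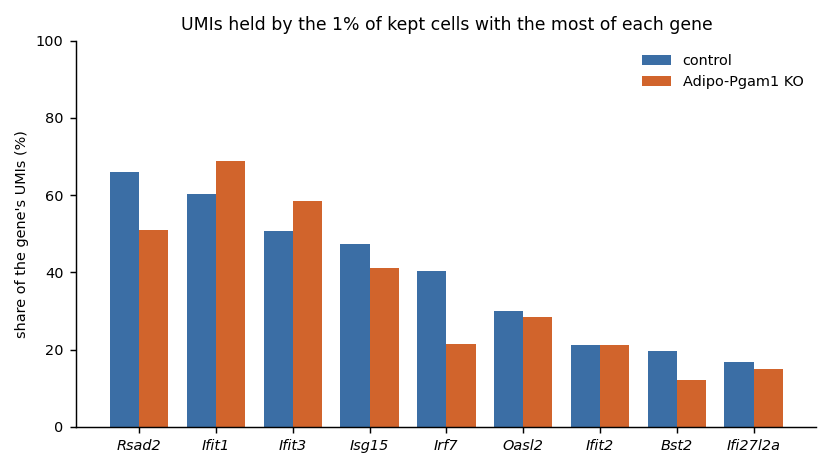
Share of the UMIs of each member (vertical axis, percent) held by the 1% of kept cells with the most UMIs of that gene, in the control (blue, 36 cells) and the Adipo-Pgam1 KO library (orange, 9 cells). In the control library the share runs from 65.9% for Rsad2 to 16.9% for Ifi27l2a.

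Part of the induced UMIs lay in single cells that carried several induced members at once. Of 3616 control cells, 2389 had no UMI of the 7 induced members, and 86 cells, or 2.38% (exact 95% interval 1.91% to 2.93%), had 4 or more of the 7. Those 86 cells held 42.5% of the induced UMIs. In the KO library 30 of 937 cells, or 3.20% (2.17% to 4.54%), had 4 or more and held 43.0%. The cut makes a range and not a cell type: 86 further control cells and 36 further KO cells had exactly 3. These cells were also deeper, with a median of 12624 UMIs against 6681.5 in other control cells and 16622.5 against 7265 in KO cells. With every cell thinned to 2000 UMIs and shallower cells left out (288 control and 99 KO), 2.67% of 3328 control cells and 3.82% of 838 KO cells had 2 or more of the 7, and the intervals of the libraries overlapped.

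With all UMIs counted, cells with 4 or more induced members were most frequent in mesothelial cells, at 22 of 105 (21.0%) in the control and 4 of 20 in the KO library. Endothelial cells followed with 11 of 153 (7.19%) and 3 of 61 (4.92%). Fibroblasts had 20 of 776 (2.58%, 1.58% to 3.95%) and 11 of 181 (6.08%, 3.07% to 10.6%), macrophages 8 of 652 and 2 of 96, and dendritic cells 9 of 260 and 2 of 63. No B cell of either library was among them, out of 133 and 39. Depth differed between these classes, with a median of 13790 UMIs in control mesothelial and 4398 in control endothelial cells. With cells thinned to 2000 UMIs, 2 or more of the 7 were found in 12.7% of control endothelial and 9.47% of control mesothelial cells, the reverse order, with overlapping intervals. KO fibroblasts were also deeper than control fibroblasts (17882 against 12304 UMIs), and thinned they stood at 3.91% and 2.61%. Thinned endothelial cells were at 8.51% in the KO library, and thinned macrophages at 1.49% (control) and 3.75% (KO).

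The cell richest in these transcripts was a KO fibroblast with 166 induced UMIs among 20816, including 60 of Ifit3, 41 of Isg15 and 29 of Ifit1. The richest control cells were a dendritic cell with 144 (52 of Isg15 and 28 of Irf7), a macrophage with 123 and a cell of the pericyte and smooth muscle class with 85 (43 of Isg15). All 7 members were found together in 9 control cells and 1 KO cell. Several pairs of members were detected together beyond the deep cells as well. Among control cells thinned to 2000 UMIs, Isg15 was found in 28.8% of the 52 cells with Ifit1 and in 2.78% of the others. Ifit3 was found in 17.3% and 0.946% of the same cells. Other pairs were not: Irf7 was found in 2.5% of the 40 cells with Ifit3 and in 2.43% of the others. Ifi27l2a followed less, being found in 34.6% of cells with Ifit1 and in 22.5% of the others. By Ifit3 it was found in 15% of cells with a UMI and in 22.8% of those without. These shares pool all classes, which differ in level.

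The cells with 4 or more induced members had more of other interferon targets in proportion to all their RNA, to an extent that differed by class. In control cells Bst2 was at 294 CPM in those 86 cells and at 77.6 CPM in the other 3530, Ifi27l2a at 668 and 213 CPM, a list of other interferon-stimulated genes at 6303 and 2810 CPM, and a list of interferon-gamma-linked genes at 1478 and 666 CPM. In KO cells the same lists stood at 7842 against 3238 CPM and at 1951 against 935 CPM. These values pool classes of different base level. Within control classes, the ratio of such cells to the others ran from 1.22 in mesothelial cells to 5.18 in dendritic cells for the other interferon-stimulated genes, and from 1.12 to 3.08 in the same classes for the interferon-gamma-linked genes. In KO mesothelial cells the ratios were 1.10 and 1.13. Immediate-early and heat-shock genes that tissue dissociation induces were at 2965 against 3187 CPM over all control cells and at 3838 against 4559 CPM over all KO cells, but at 5515 against 3909 CPM in control dendritic cells and 3153 against 2911 CPM in control fibroblasts. Control endothelial cells departed from this for Ifi27l2a, with 16.6 CPM in 11 such cells and 35.5 CPM in the other 142.

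**Figure D3:**
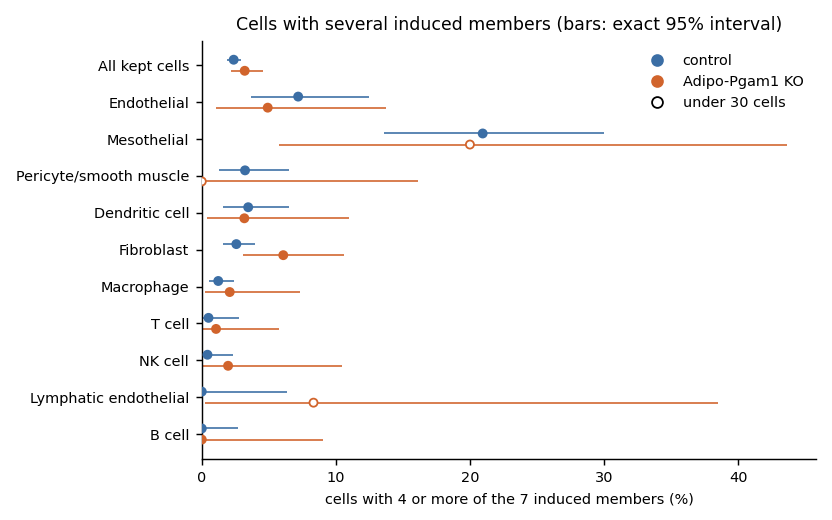
Share of cells with 4 or more of the 7 induced members (horizontal axis, percent) over all kept cells and in the 10 named classes, in the control (blue) and Adipo-Pgam1 KO (orange) library, with exact Clopper-Pearson 95% intervals. Open points are classes with fewer than 30 cells. Mesothelial cells stand at 21.0% in the control library, and the intervals of the libraries overlap in every class.

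Rsad2 departed from the other members in where its UMIs lay. Of its 557 UMIs in control cells, 110 were in 1 macrophage of 3696 UMIs that also had 8 Ifit1 UMIs and 1 UMI each of Isg15, Ifit2 and Ifit3. A further 112 lay in an unnamed, shallow cluster led by the hemoglobin genes Hbb-bt and Hba-a2, in 21 of its 158 control cells and in 0 of its 55 KO cells, where the other 6 induced members together had 24 and 6 UMIs. All 21 cells were among the 37 of that cluster in which erythroid markers (the hemoglobins Hbb-bs and Hba-a1 and the heme enzyme Alas2) made up at least 10% of the UMIs. The 10% limit was chosen after these values were seen.

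Over all kept control cells, Rsad2 was at 323 CPM (272 to 381) in the 70 cells with at least 10% erythroid UMIs and at 13.9 CPM (12.6 to 15.3) in the other 3546, while the other 6 induced members had 20 UMIs in those 70 cells. The KO library had 2 such cells, with 2 Rsad2 UMIs. Most barcodes rich in erythroid UMIs were left out by the limit of 500 genes, having a median of 145 genes (control) and 105 genes (KO). In these, Rsad2 stood at 531 CPM (506 to 557) in 1131 control barcodes and at 399 CPM (371 to 429) in 564 KO barcodes, against 15.5 and 15.3 CPM in the other barcodes left out. All barcodes with at least 10% erythroid UMIs, kept or not, held 77.7% of the control library's 2457 Rsad2 UMIs and 85.4% of the KO library's 892. The other 6 induced members did not share this, at 46.8 CPM in the hemoglobin-rich control barcodes left out and 74.8 CPM in the rest of those left out. Tissue preparation included a step that lyses erythrocytes, and the source of these Rsad2 UMIs was not tested.

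**Figure D4:**
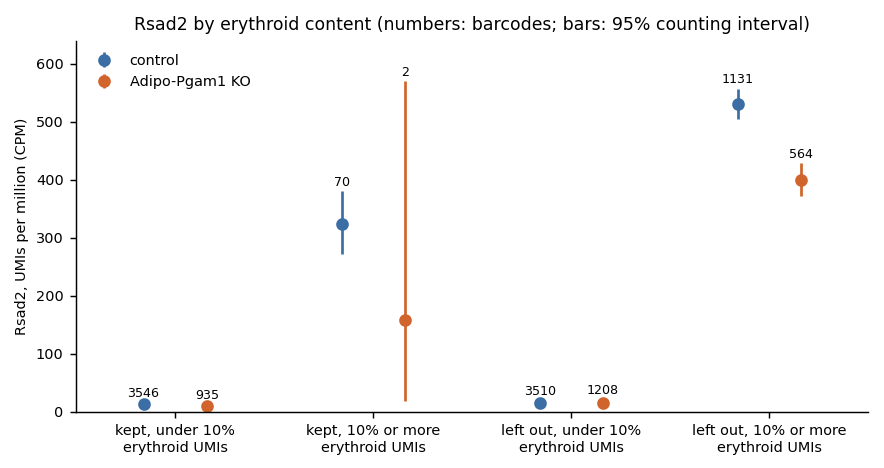
Rsad2 level (vertical axis, CPM) in kept cells and in barcodes left out by the filters, each divided by whether erythroid markers made up at least 10% of UMIs, in the control (blue) and Adipo-Pgam1 KO (orange) library. Numbers give the barcodes and bars the exact Poisson 95% interval. Rsad2 is at 531 and 399 CPM in hemoglobin-rich barcodes that were left out and under 16 CPM in barcodes with few hemoglobin UMIs.

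Across all kept cells, the KO library had slightly more interferon-stimulated RNA, with members differing in direction. Isg15 was at 23.5 CPM in control and 35.4 CPM in KO cells (713 and 337 UMIs), a log2 ratio of 0.59 (0.40 to 0.78). Irf7 was at 14.5 and 22.9 CPM (0.66), Ifit3 at 10.6 and 18.7 CPM (0.82, 0.55 to 1.09) and Ifit1 at 10.6 and 15.1 CPM (0.51). Bst2 was at 86.5 and 107 CPM (0.31, 0.20 to 0.41) and Ifi27l2a at 232 and 278 CPM (0.26, 0.20 to 0.33).

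Oasl2 showed no difference beyond counting error, at 28.2 and 28.8 CPM (0.03). Ifit2 was lower in KO cells, at 18.7 and 15.5 CPM (-0.28, -0.55 to -0.013), as was Rsad2, at 18.4 and 10.3 CPM (-0.83, -1.16 to -0.52). Without the cells with at least 10% erythroid UMIs, Rsad2 was at 13.9 and 10.1 CPM (-0.46, -0.79 to -0.13). Without those cells and the 1 control macrophage, Rsad2 was at 10.2 and 10.1 CPM (-0.01, -0.36 to 0.32). That macrophage was chosen for its Rsad2 UMIs and no KO cell was left out to match, so the ratio without it had to rise. No member of 9 was at least 2-fold higher or lower over all cells, against 3.83% and 2.74% of 14906 genes with at least 20 UMIs. The median log2 ratio of the members was 0.31 and that of all genes -0.06.

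Single cells moved the difference in the induced members. Their sum was 125 CPM in control and 147 CPM in KO cells, a log2 ratio of 0.24 (0.15 to 0.33), and 0.11 (0.02 to 0.21) once the richest cell of each library was left out. Without the richest 1% of cells of each library (37 control and 10 KO cells) it was 0.28 (0.17 to 0.39). Under that same omission Ifit3 was at 0.36 (-0.04 to 0.75) and Ifit1 at 0.10 (-0.38 to 0.55), whereas Isg15 (0.66), Irf7 (0.89), Bst2 (0.34) and Ifi27l2a (0.25) kept intervals above 0. The classes took different shares of the libraries, so the KO levels were also weighted by the control shares of UMIs, which gave log2 ratios of 0.50 for Isg15, 0.51 for Irf7, 0.32 for Bst2, 0.35 for Ifi27l2a and 0.21 for the 7 induced members. Called doublets were 265 of 3881 control and 21 of 958 KO barcodes. Before their removal the 7 induced members were at 131 CPM in control and 145 CPM in KO cells, a smaller difference.

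In fibroblasts the induced members were higher in the KO library, in large part through 1 cell. The 7 induced members were at 101 CPM in 776 control and 166 CPM in 181 KO fibroblasts, a log2 ratio of 0.71 (0.55 to 0.87). Of the 9 members, 3 were at least 2-fold higher (Isg15, Ifit1 and Ifit3), against 2.02% of 11785 genes, and 0 were 2-fold lower, against 3.32%. Isg15 was at 11.4 and 31.9 CPM, 2.80-fold higher, with 41 of its 96 KO UMIs in the cell named above. Without that cell and the richest control fibroblast, no member was 2-fold higher and the ratio of the induced members was 0.22 (0.04 to 0.40). Bst2, at 52.6 and 72.5 CPM (0.46, 0.23 to 0.69), and Ifi27l2a, at 194 and 246 CPM (0.34, 0.21 to 0.46), owed little to that cell, which held 14 of 218 and 26 of 739 KO UMIs. Dissociation genes were at 2918 CPM in control and 4690 CPM in KO fibroblasts, and their part in these differences was not tested.

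Endothelial cells were the class where the KO library was lower. The induced members were at 505 CPM in 153 control cells and 321 CPM (268 to 381) in 61 KO cells, a log2 ratio of -0.65 (-0.95 to -0.36). Of the 9 members, 3 were at least 2-fold lower (Isg15, Ifit1 and Oasl2), against 7.72% of 7308 genes, and 0 were 2-fold higher, against 2.48%. Isg15 was at 147 and 61.8 CPM (-1.25, -1.94 to -0.62), and Bst2 at 477 and 314 CPM (-0.61, -0.91 to -0.31), the one compared class in which Bst2 was lower.

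Rsad2 did not follow in the endothelium, at 100.5 and 106 CPM, and neither did Irf7, at 33.9 and 34.6 CPM. Without the 1 richest cell of each library the ratio of the induced members was -0.74 (-1.06 to -0.42), and without the richest 5% it was -0.19 (-0.59 to 0.20). The cells left out were chosen by the same UMIs, so these omissions cannot say which cells carry the difference. With cells thinned to 2000 UMIs the ratio was -0.11. Other interferon targets were lower here as well: of 24 other interferon-stimulated genes measured, 9 had intervals below 0 and 3 above, with a median of -0.43, against 10.2% below, 5.04% above and a median of -0.13 for all 7308 genes. Dissociation genes were at 3382 and 4727 CPM, and their part in these differences was not tested.

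Macrophages and dendritic cells showed no difference beyond counting error in the sum of induced members. Macrophages were at 79.9 and 84.7 CPM (log2 ratio 0.08, -0.24 to 0.40) and dendritic cells at 113 and 112 CPM (-0.01, -0.33 to 0.30). Of the 501 induced UMIs in control macrophages, 123 lay in 1 cell, and without it the control level was 60.3 CPM. The macrophage ratio was -0.82 with cells thinned to 2000 UMIs and 0.68 without the richest 5% of cells. In macrophages, Isg15 was at 11.8 and 20.9 CPM (0.83, 0.10 to 1.51) and Ifi27l2a at 402 and 546 CPM (0.44, 0.31 to 0.57). Rsad2 was the 1 of 7 members with at least 20 UMIs that was 2-fold lower, against 5.76% of 10418 genes, by way of the single cell described above, and 0 were 2-fold higher, against 2.38%.

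In dendritic cells, Isg15 was at 34.2 and 51.1 CPM (0.58, 0.07 to 1.07) but the 3 Ifit genes were at least 2-fold lower, against 5.91% of 9177 genes, and 0 of 9 members were 2-fold higher, against 1.63%. Of the 3, Ifit3 alone had an interval below 0, and those of Ifit1 and Ifit2 held 0. Ifit3 had 29 UMIs in 6 of 260 control cells and 1 UMI in 63 KO cells, and 15 of the 29 lay in the richest cell. Without that cell and its KO counterpart, 0 members were 2-fold lower, 2 were 2-fold higher, and the induced sum was at 68.4 and 89.5 CPM (0.39, 0.01 to 0.75). With the libraries clustered separately, Isg15 was lower in KO dendritic cells (-0.49), and with the stricter filter of 1000 genes and 5% mitochondrial UMIs it was lower in KO macrophages (-0.79). Macrophages in the libraries came from different clusters in part, with 32 of 96 KO and 357 of 652 control macrophages in the one led by Cd209f and Folr2.

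Lymphocytes had few UMIs of the induced members. In T cells Isg15 was at 6.68 CPM (6 UMIs in 200 cells) and 26.0 CPM (15 UMIs in 94 cells), a log2 ratio of 1.96 (0.51 to 3.61), the 1 member of 5 that was 2-fold higher, against 1.94% of 7000 genes, with 0 lower, against 6.11%. Bst2 was at 55.7 and 88.4 CPM (0.67, 0.08 to 1.26) and Ifi27l2a at 275 and 420 CPM (0.61, 0.35 to 0.87) in the same cells, and 68 of the 242 KO UMIs of Ifi27l2a lay in 1 cell. In NK cells 1 of 4 members, Isg15, was 2-fold lower, on 19 and 3 UMIs with an interval that held 0, against 6.37% of 7148 genes, and 0 were higher, against 2.69%. B cells had 2 members with at least 20 UMIs, Bst2 and Ifi27l2a, and neither passed 2-fold, against 4.34% of 5276 genes higher and 6.84% lower.

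**Figure D5:**
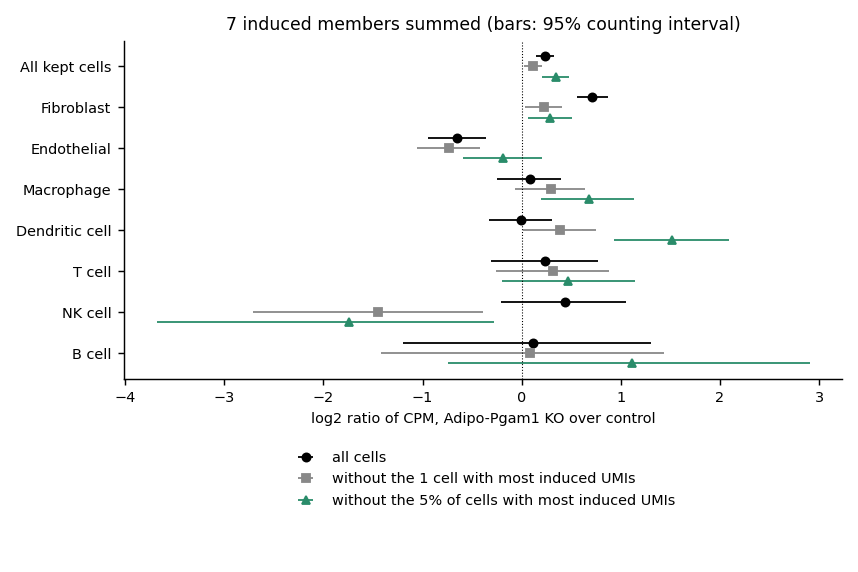
Log2 ratio of the summed level of the 7 induced members in Adipo-Pgam1 KO over control cells (horizontal axis) for all kept cells and 7 named classes, with exact conditional 95% intervals for counting error. Black circles use all cells, grey squares leave out the richest cell of each library, and green triangles the richest 5%. The fibroblast ratio moves from 0.71 to 0.22 without 1 cell, the NK ratio from 0.44 to -1.44, and the endothelial ratio from -0.65 to -0.19 without 5% of cells.

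Among unnamed clusters, the one led by Klra1, Klra6 and Cd160 had the largest excess, with the induced members at 69.1 CPM in 95 control and 380 CPM in 37 KO cells (30 and 83 UMIs), of which 31 and 25 KO UMIs lay in single cells. Without the 1 richest cell of each library it was at 62.9 and 246 CPM, a log2 ratio of 1.97 (1.27 to 2.69). The Cd300e and Trem3 cluster was at 331 CPM in both libraries, while its Bst2 was at 113 and 182 CPM (0.68, 0.19 to 1.16) and its Ifi27l2a at 819 and 1006 CPM (0.30, 0.10 to 0.49). Of its 7 members with at least 20 UMIs, 2 were 2-fold lower (Ifit3 and Rsad2), against 9.33% of 6066 genes. In the other direction 0 were 2-fold higher, against 4.88%, and Rsad2 had an interval below 0. Over the 12 clusters and classes compared, Bst2 was higher in the KO library in 11, with 6 intervals above 0 and 1 below, and Ifi27l2a in 9, with 8 above and 1 below. Ifit2 had no interval that left out 0 in any of the 11 with a ratio.

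The classes too small to compare are given as levels. In mesothelial cells Oasl2 was at 175 CPM in 105 control and 212 CPM in 20 KO cells, Isg15 at 58.4 and 23.6 CPM, Bst2 at 129 and 195 CPM, and Ifi27l2a at 418 and 421 CPM. In lymphatic endothelial cells, 57 of the 65 induced UMIs of the KO library lay in 1 of 12 cells. Pericytes and smooth muscle cells had 10 induced UMIs in 21 KO cells, against 230 in 217 control cells, 85 of them in 1 cell.

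Further genes of the pathway were read from fixed lists. Of 38 other interferon-stimulated genes with at least 20 UMIs over all kept cells, 26 had a ratio with an interval above 0 and 3 below, with a median log2 ratio of 0.28. Of all 14906 genes, 16.5% had an interval above 0 and 25.8% below, with a median of -0.06, and 4 abundant genes read as a resting control (Actb, Tmsb4x, Eef1a1 and Tpt1) were above 0 in 4 of 4, with a median of 0.13. With the KO levels weighted by the control class shares, the median of the 38 genes was 0.18, with 29 higher and 9 lower. With the richest 1% of cells of each gene and library left out, 26 were above 0 and 2 below, 24 of the 26 being the same genes. Cxcl10 lost 100% of its control UMIs by this but 91.9% of its KO UMIs, so its place among the 24 was fixed in advance. The 3 most abundant were Ifitm3, which blocks viral fusion, at 1023 and 1175 CPM, Ly6e at 584 and 690 CPM, and the DNA-binding protein gene Ifi204 at 161 and 176 CPM. The largest ratios were for the chemokine Cxcl10 (7.65 and 36.5 CPM), Slfn1 (8.61 and 25.2 CPM, log2 1.55) and Zbp1, a sensor of Z-form nucleic acid (17.1 and 35.2 CPM, 1.04). Cxcl10 rested on 28 control and 27 KO cells, and 239 of its 347 KO UMIs were in 1 cell. Dtx3l, Trim25 and Samd9l were lower, the first at 45.6 and 39.5 CPM.

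Over all kept cells and before weighting by class shares, interferon-gamma-linked genes had a higher median log2 ratio than the members (0.54 against 0.31). Of 20, 17 had intervals above 0 and 0 below, with a median of 0.54, against the same 16.5% and 25.8% of all genes. With the richest 1% of cells of each gene and library left out, 16 of the 17 stayed above 0. Cxcl9 and Tgtp1 lost 100% of their control UMIs by this but 88.1% and 68% of their KO UMIs. Their place among the 16 was therefore fixed in advance. Weighted by the control class shares, 20 of 20 were higher and the median was 0.37. Single members weighted likewise ran from -0.98 (Rsad2) to 0.86 (Ifit3). Isg15, Ifit1, Ifit3 and Irf7 were above 0.37 and the other members below it. The immunoproteasome subunits Psmb8 (146 and 216 CPM, 0.56) and Psmb9 (72.3 and 106 CPM, 0.55) and the peptide transporter Tap1 (62.6 and 73.9 CPM, 0.24) were the most abundant. Cxcl9, a chemokine for activated T cells, was at 10.5 and 44.9 CPM on 37 control and 30 KO cells. Tgtp1 and Tgtp2, GTPases of near-identical sequence whose reads may be shared, were at 0.692 and 2.63 CPM and at 1.78 and 5.15 CPM.

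The interferon-gamma-linked list differed by class: 6 of 15 genes were above 0 in fibroblasts and 0 below, 8 of 18 and 0 in macrophages, 6 of 17 and 0 in dendritic cells, and 2 of 16 and 5 in endothelial cells. Lymphocytes showed little of this, with 1 of 15 above 0 in T cells (median 0.04), 0 of 15 in NK cells (median 0.06) and 0 of 9 in B cells (median -0.31), where 1 was below 0. Of all genes, 8.57% were above 0 and 18.7% below in fibroblasts, 7.77% and 12.8% in macrophages, 7.1% and 9.84% in dendritic cells, and 5.04% and 10.2% in endothelial cells. The shares were 5.3% and 8.4% in T cells, 5.16% and 5.25% in NK cells, and 6.39% and 7.41% in B cells. The dissociation genes were above 0 for 10 of 10 genes over all cells, at 3177 CPM in control and 4521 CPM in KO cells, and their part in the interferon ratios was not tested. In dendritic cells they were at 3964 and 3277 CPM, with 6 of 10 below 0 and 2 above. Medians of the dissociation and the interferon-gamma-linked genes were -0.31 and 0.57 in dendritic cells, 0.57 and 0.35 in fibroblasts, and 0.26 and 0.44 in macrophages. They were 0.74 and -0.41 in endothelial cells, 0.25 and 0.04 in T cells, -0.19 and 0.06 in NK cells, and 0.70 and -0.31 in B cells.

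Of the ligands, interferon-gamma (Ifng) was the 1 of 15 with more than 3 UMIs, at 6.86 CPM in control (208 UMIs in 148 cells) and 16.4 CPM in KO cells (156 UMIs in 56 cells), a log2 ratio of 1.26 (0.95 to 1.56). In T cells it was at 41.2 and 146 CPM (1.82, 1.25 to 2.42), but 57 of their 84 KO UMIs lay in 1 T cell. Without the richest T cell of each library it was at 34.7 and 48.1 CPM, with an interval that held 0 (0.47, -0.33 to 1.26), and the ratio over all cells was 0.65, with an interval above 0. In NK cells it was at 106 and 88.9 CPM (-0.25, -0.90 to 0.35). The unnamed Klra1 and Klra6 cluster had 45 and 35 Ifng UMIs, at 104 and 160 CPM (0.63, -0.05 to 1.30). T cells made up 5.53% of control and 10.0% of KO cells, and Ifng was not weighted by class shares. Without the richest 1% of cells the ratio over all cells was 0.76 (0.28 to 1.23). Type I and type III interferon genes had at most 1 UMI each, which does not show that none was made.

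Of the receptor and signalling genes, 8 of 17 were above 0 and 3 below (Il10rb, Irf3 and Tyk2), against 16.5% and 25.8% of all 14906 genes. Their median was -0.002, against -0.06 for all genes. Ifnar1 was at 69.0 and 65.4 CPM, Ifngr1 at 325 and 376 CPM and Jak1 at 324 and 319 CPM. Stat2 and Irf9, parts of the complex that type I interferon activates, were level, at 32.9 and 32.5 CPM and at 42.7 CPM in both libraries. The feedback inhibitors Socs3 (60.7 and 124 CPM, 1.03) and Socs1 (25.2 and 39.7 CPM, 0.66) had the largest ratios in the list, ahead of Irf8 (165 and 231 CPM, 0.48), and Socs3 also answers to cytokines other than interferon. Of the genes that attach or remove Isg15, the ligase Herc6 was at 23.0 and 29.6 CPM (0.37) and the protease Usp18 at 6.63 and 8.73 CPM, while the activating and conjugating enzymes Uba7 and Ube2l6 were at 20.3 and 18.9 CPM and at 24.5 and 21.6 CPM with intervals that held 0. Sensors and adaptors had 1 of 8 above 0 (Tlr3) and 2 below (Tlr7 and Tbk1), near the same 16.5% and 25.8% of all genes.

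Some members have close relatives whose reads may be shared between them. Ifit3b, which lies between Ifit3 and Ifit1 on chromosome 19, had 120 and 43 UMIs, and of 110 cells with an Ifit3b UMI in both libraries 46 also had one of Ifit3. Oasl1 had 65 and 29 UMIs, and Ifi27l2b 14 and 2. Ratios of Ifit3 in single cells of few UMIs are uncertain to that extent.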

How the data were processed

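The processed data were 1 matrix per library of UMI counts per gene and barcode, deposited by the authors without normalization. According to the submitters' processing notes, reads were processed with Cell Ranger 3.0.1 on mm10, and Seurat 3.1.5 in R 4.0.1 was also named. No cell annotation was used here. Members and gene lists were chosen with earlier results of these data known.

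Barcodes under 500 detected genes or over 10% mitochondrial UMIs were dropped. Doublets were scored per library with Scrublet in scanpy 1.11.5 and removed highest scores first, at a rate of 0.8% for every 1000 barcodes of the library, which took 265 control and 21 KO barcodes. Counts were scaled to 10000 per cell and log-transformed, and 2000 variable genes without the interferon lists, 30 components, 20 neighbours and Leiden clustering (leidenalg 0.10.2, resolution 0.5) gave the clusters. A cluster was named from fixed markers when its mean marker score was above 0.5, led the next class by 0.75 and rested on at least 3 detected markers, and when markers of another class did not outnumber its own among its top 10 genes. Clusters of low depth stayed unnamed.

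Counts were summed per class and library. Intervals at 95% were exact Poisson (levels), Clopper-Pearson (shares) and conditional binomial (ratios), from scipy 1.17.1. They cover counting error only, and since cells of 1 library are not replicates, no p-value was computed. Counts of 0 were set to a limit of 3 UMIs, and no ratio was given where neither library passed 3. Genes past 2-fold were counted among those with at least 20 UMIs, with counts under 3 set to 3. The steps were tested on simulated data. Genes named beside the members were, per list, the 3 with the most UMIs and up to 3 with the largest and smallest ratios whose interval left out 0, and 5 genes outside the lists whose log2(CPM + 1) over the 10 classes correlated most with that of the induced members. Others named (Ifnar1, Stat2, Irf9, Ifit3b, Oasl1, Ifi27l2b and the erythroid markers) were chosen for their role or after their values were seen, as was the split by erythroid content. Of 42 other interferon-stimulated genes listed, 39 were in the files. As a resting control, Actb, Tmsb4x, Eef1a1 and Tpt1 were read, of which Actb was at 7445 and 8577 CPM and Tpt1 at 4940 and 5289 CPM. Alternatives were 18 settings planned and 4 added after seeing the data, with edgeR 4.0.16 for TMM factors. All columns were used.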

Additional observations from a re-analysis of the deposited data

Results flagged for a closer look

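The barcodes left out by the filters (4641 control and 1772 KO) were not part of the comparisons, and 1 signal in them lay above the control level. Isg15 was at 23.1 CPM (225 UMIs) in the control and 34.5 CPM (142 UMIs) in the KO barcodes, a log2 ratio of 0.58 (0.27 to 0.89). Over the kept cells the ratio was 0.59. Bst2 (49.8 and 37.2 CPM, -0.42, -0.69 to -0.16), Ifi27l2a (86.2 and 68.1 CPM, -0.34, -0.54 to -0.14) and Ifit1 (7.50 and 4.38 CPM, -0.78, -1.61 to -0.02) were lower in the KO barcodes left out, although each was higher in the KO library over the kept cells.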

How the results depend on the processing

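Of 799 log2 ratios of single members under other settings, 708 moved less than their counting interval, 79 moved more without turning and 12 turned. The 8 ratios of the induced sum moved less than their interval under TMM and under median-of-ratios factors, which shifted all genes by at most 0.11 on the log2 scale (T cells, median-of-ratios). The cause was not tested for any value below. Cells left out were chosen by their induced UMIs, which shows where those UMIs lay and tests no cause. No paired analysis was possible because each genotype had 1 library and no test was made.

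The log2 ratios of single members that turned were those of Ifi27l2a in dendritic cells (-0.0194 with no doublet removal, -0.33 under the stricter filter of 1000 genes and 5% mitochondrial UMIs, -0.0206 with interferon genes among the clustering genes and -0.00634 without the 10 richest cells of each class and library), Isg15 in dendritic cells (-0.49 with libraries clustered separately, -0.61 without 10 cells), Bst2 in dendritic cells (-0.2, clustered separately), Isg15 and Rsad2 in macrophages (-0.79 and 1.1 under the stricter filter), Ifit1 over all cells (-0.47 without 10 cells), Ifit2 over all cells (0.18 with cells thinned to 2000 UMIs) and Ifit1 in NK cells (-0.34 without 1 cell). Those 10 cells are a larger share of the KO than of the control cells.

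The log2 ratio of the induced sum in dendritic cells was 0.41 under a looser filter of 200 genes and 20% mitochondrial UMIs, -0.48 under the stricter filter, -0.98 clustered separately, 0.53 thinned and -0.36 without Isg15. In fibroblasts it was 0.89 under the stricter filter, 0.98 thinned, 0.48 over all 9 members and 1.04 without Ifit2. Thinned, it was -0.11 in endothelial cells and -0.82 in macrophages, and clustered separately 1.38 in NK cells. Without 10 cells it was 0.0174 over all cells, 0.0407 in fibroblasts and -0.4 in macrophages. Leaving out the richest 1 cell or 5% of cells was chosen after seeing the data: without 1 cell it was 0.11 over all cells, 0.22 in fibroblasts, 0.39 in dendritic and -1.44 in NK cells, and without 5% it was 0.34, 0.28, 1.51 and -1.74 in the same order, -0.19 in endothelial cells and 0.68 in macrophages.

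Without 1 cell, 0 members were 2-fold higher in fibroblasts, 0 lower in macrophages, and 2 higher and 0 lower in dendritic cells. With no cell left out, 2.02% of all genes were higher in fibroblasts and 5.76% lower in macrophages. In dendritic cells 1.63% were higher and 5.91% lower. With genes of at least 10 UMIs, 1 member was higher in macrophages, against 3.5% of 11397 genes. In NK cells 1 was higher, against 4.21% of 8723 genes. Cells with 3 or more of the 7 made up 4.76% (control) and 7.04% (KO), and those with 5 or more 1.33% and 1.71%.

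The control CPM of the induced sum under the stricter filter was 694 in endothelial, 401 in mesothelial and 127 in dendritic cells, 109 in fibroblasts, 101 in macrophages and 88.6 in pericytes and smooth muscle. Under the looser filter it was 57.4 in dendritic cells and 119 in pericytes. Thinned, it was 403 in endothelial cells, 144 in macrophages and 117 in pericytes. With equal weight for each cell it was 123 in macrophages and 118 in pericytes, clustered separately 101 in macrophages, with no doublet removal 203 in pericytes, at resolution 0.3 115 in macrophages and 57.2 in dendritic cells, and at resolution 1.0 169 in pericytes. Without 1 cell it was 60.3 in macrophages, 68.4 in dendritic cells and 93.4 in pericytes. Without 10 cells it was 220.0 in endothelial, 277 in mesothelial, 26.0 in lymphatic endothelial, 22.3 in dendritic, 50.4 in T, 47.9 in NK and 6.75 in B cells, 80.9 in fibroblasts, 40.6 in macrophages and 64.2 in pericytes. Without 5% it was 247 in endothelial, 305 in mesothelial, 18.3 in dendritic, 50.4 in T, 44.1 in NK and 11.5 in B cells, 68.4 in fibroblasts, 29.0 in macrophages and 62.5 in pericytes. Endothelial and mesothelial cells led under each setting that gave both, with mesothelial cells first when 10 cells or 5% of cells were left out. No cluster met the rule for endothelial cells or macrophages under the looser filter, or for T or B cells under the stricter one, so those give no value there.

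Few UMIs per class limit single members: 4 of 9 members in T cells, 5 in NK cells and 7 in B cells had under 20 UMIs.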
